A study of Mus musculus with 6 samples.

Results

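A set of 10 genes that build, cut or protect the extracellular matrix was followed in cultured mouse microglia of a line made for deletion of the nuclear receptor REV-ERBα. They are 5 metalloproteases (Adamts1, Mmp2, Mmp9, Mmp12 and Mmp14), 3 tissue inhibitors of metalloproteases (Timp1, Timp2 and Timp3) and 2 matrix proteins, fibronectin (Fn1) and periostin (Postn). All 10 were found by Ensembl identifier among the 55487 genes counted. The set was chosen by name with the Cre+ against Cre− values already known: Adamts1 was included because its level was higher in Cre+ cultures, Postn because its level was lower, and the others as proteases of the same pathway, their inhibitors and their substrates. Levels of these 10 genes are therefore given as a description of the 6 libraries, without a p-value.

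Microglia were grown out of cortical tissue of P1-3 pups carrying floxed Nr1d1 alleles (CAG::CreERT2; Nr1d1 fl/fl), kept as mixed glia in medium with GM-CSF and then shaken off. The 3 Cre+ cultures carried CreERT2, a Cre recombinase that enters the nucleus once 4-hydroxytamoxifen (4-OHT) is bound. The 3 Cre− cultures lacked it. Both groups, 6 cultures in all, were given 4-OHT at 1.5 μM. The labels give an exposure of 2 days, and the study's methods give a shorter time for cultures of this line. The CAG promoter is active in most cell types and does not limit Cre to microglia. Since only the Cre+ group had the recombinase, the presence of Cre and the loss of Nr1d1 cannot be told apart. The labels do not say whether the 3 cultures of a group came from separate pups, and the spread between libraries may be partly technical.

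Matrix metalloproteases are secreted or membrane-bound enzymes that hold a zinc ion in the active site and cleave collagens, elastin, fibronectin and many cell surface proteins. The ADAMTS enzymes form a related family with thrombospondin repeats that anchor them in the matrix, and ADAMTS1 cleaves proteoglycans such as versican. TIMPs bind the zinc site and block it. In the brain, microglia and macrophages that enter the tissue are known sources of these enzymes, which loosen the matrix around vessels and synapses. REV-ERBα is a transcriptional repressor, and Mmp9 has been described as one of its targets in macrophages.

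The active site is the feature that the 5 proteases share, and the coding stretch of 33 bases around it is shown to let their relation be read directly. Capitals mark the codons of the 3 histidines that hold the zinc and of the catalytic glutamate. The sequences are from the GRCm38 genome with GENCODE M21 exons, 5′ to 3′ on the coding strand.
Mmp12 (chr9:7352914-7352946, plus strand, exon 5 of 10): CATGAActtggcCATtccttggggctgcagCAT
Mmp14 (chr14:54437627-54437659, plus strand, exon 5 of 10): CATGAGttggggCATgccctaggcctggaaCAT
Mmp2 (chr8:92839279-92839311, plus strand, exon 8 of 13): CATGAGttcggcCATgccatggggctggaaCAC
Mmp9 (chr2:164951133-164951165, plus strand, exon 8 of 13): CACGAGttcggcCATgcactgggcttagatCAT
Adamts1 (chr16:85799191-85799545, minus strand, joined across the intron between exons 3 and 4 of 9): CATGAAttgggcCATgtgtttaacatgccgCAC
Each stretch was found by searching the protein for these histidines and the glutamate, with glycine or asparagine at the eighth place. The presence of the 4 histidine and glutamate codons in all 5 genes was therefore set by the search. The eighth codon of the stretch encoded glycine in the 4 matrix metalloproteases and asparagine in Adamts1. Mmp2 shared 25 of the 33 bases with Mmp12, Mmp14 shared 23, and Mmp9 and Adamts1 shared 21 each.

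Promoter sequence is shown for the 2 genes whose levels differed most between the groups, as the 150 bases before the RefSeq start (GRCm38.p6). The RefSeq promoter table held 9 entries for 7 of the 10 genes, with none for Fn1, Mmp2 or Mmp9. Capitals mark the GC box GGGCGG and the TATA sequence TATAAA.
Adamts1 (chr16:85803114-85803263, minus strand): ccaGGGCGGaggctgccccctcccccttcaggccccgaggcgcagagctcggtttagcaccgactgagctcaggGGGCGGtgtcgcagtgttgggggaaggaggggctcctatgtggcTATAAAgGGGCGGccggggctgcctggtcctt
Postn (chr3:54360957-54361106, plus strand): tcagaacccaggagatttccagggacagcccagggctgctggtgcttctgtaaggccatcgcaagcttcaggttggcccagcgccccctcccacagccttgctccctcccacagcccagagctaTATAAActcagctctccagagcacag
The sequence TATAAA, searched on the gene's strand, began 32 bases before the start of Adamts1 and 26 bases before that of Postn. It was present in these 2 entries of the 9 and in 4.84% of 32851 promoter windows of the same length. GGGCGG, searched on both strands, occurred at 3 places in the Adamts1 window, in 5 of the 9 entries and in 28.6% of all windows. AGGTCA, the hexamer that nuclear receptors such as REV-ERBα recognise, was searched on both strands. It was in neither window shown, in a second entry each of Postn and Mmp12, and in 8.58% of all windows. TGAGTCA, the sequence bound by AP-1, was searched on both strands and was in the second Mmp12 entry alone and in 2.84% of all windows. These are matches of letters and carry no evidence of binding.

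Counts on genes ranged from 87545868 to 110909129 per library. Of all genes, 11429 exceeded 1 CPM (a count scaled to a total of 1000000 per library) in 4 or more libraries. All were put to the quasi-likelihood test of edgeR, and 579 (5.07%) passed the threshold of 0.05 after Benjamini-Hochberg adjustment. Of those tested, 2.50% were higher and 2.56% lower in Cre+, and 24.0% had groups that did not overlap. Nr1d1 itself was low: the Cre− libraries held 2.35, 1.20 and 1.64 CPM and the Cre+ libraries 1.00, 0.945 and 1.08 CPM. Its log2 fold change of -0.77 ± 0.25 (SE) did not pass the test (edgeR adjusted p = 0.094). It was -0.50 without Cre− replicate 1 (edgeR adjusted p = 0.31) and -0.98 without Cre− replicate 2 (edgeR adjusted p = 0.041). The Cre+ libraries still held 88 to 110 Nr1d1 reads. Reads were counted over the whole gene, including exons outside the floxed part, so these counts do not measure the deletion itself. The family member Nr1d2 (log2 fold change 0.19 ± 0.17, edgeR adjusted p = 0.59) and Arntl, a clock gene that REV-ERBα represses (0.08 ± 0.17, edgeR adjusted p = 0.87), did not pass either. Among 10 microglia markers, Trem2 and Csf1r were abundant in all libraries (1614 and 466 CPM in Cre−), whereas P2ry12 averaged 0.610 CPM.

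Of the 10 genes, 9 were tested. Adamts1 and Mmp12 were higher in Cre+ libraries and past the threshold, Postn, Mmp14, Timp1 and Timp2 were lower and past it, and Fn1, Mmp2 and Mmp9 were not past it. Timp3 fell below the expression filter. The 6 genes past the threshold were also those whose groups did not overlap. The median log2 fold change of the 9 was -0.06, against 0.00 for all genes tested. Since the choice of genes used this contrast, nothing is read from these counts.

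**Figure D1:**
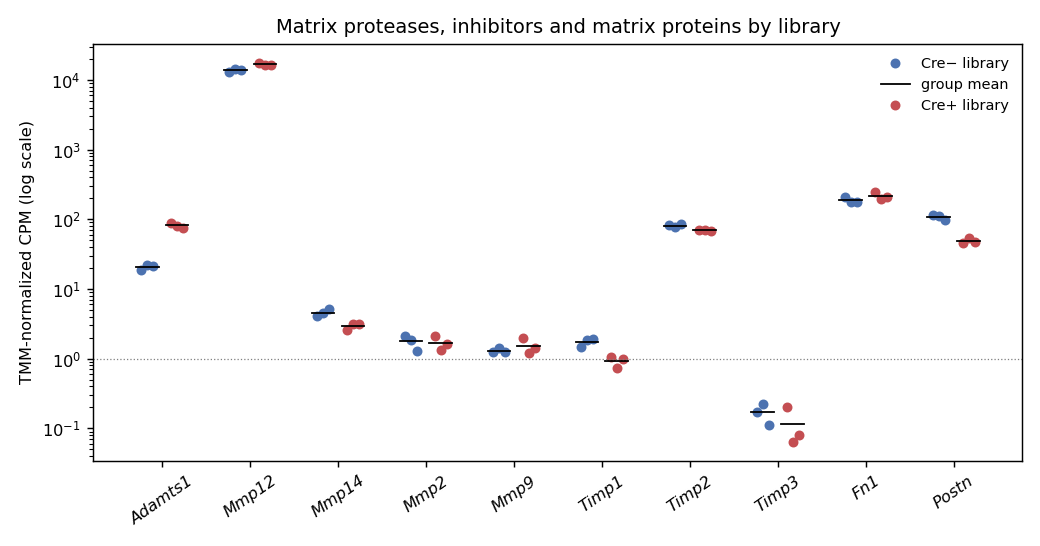
Level of each of the 10 genes in the 3 Cre− (blue) and 3 Cre+ (red) libraries, in TMM-normalized CPM on a log axis, with black bars for group means and a dotted line at 1 CPM. Adamts1 points rise from about 20.9 to 82.3 CPM and Postn points fall from 109 to 48.6 CPM, while the points of Fn1, Mmp2, Mmp9 and Timp3 overlap between the groups.

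Adamts1 showed the largest difference of the set. Its level was 18.8, 22.3 and 21.6 CPM in Cre− and 89.8, 81.2 and 75.7 CPM in Cre+ libraries. The lowest Cre+ library lay far above the highest Cre− library. The means were 20.9 ± 1.86 CPM (SD, n = 3) and 82.3 ± 7.08 CPM (SD, n = 3), a 3.94-fold higher level and a log2 fold change of 1.98 ± 0.08 (SE). Leaving out any 1 library kept the log2 fold change between 1.90 and 2.03. In bulk RNA, fewer cells that express a gene and less of its RNA per cell cannot be told apart, which holds for every gene described here. Adamts1 (ENSMUSG00000022893) lies on chromosome 16 at 85793827 to 85803113 on the minus strand.

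Adamts5, which encodes an aggrecan-degrading enzyme, is the neighbour of Adamts1, 53.1 kb away on the same strand. Its values were looked at after those of Adamts1 were seen. It had 61, 38 and 61 reads in Cre− and 16, 9 and 5 reads in Cre+ libraries, below the expression filter. The values of these adjacent proteases thus lay in opposite directions, with no overlap between the groups for either. A lower mean was not particular to Adamts5. Of the 48 other metalloproteases read here, 30 had a lower mean in Cre+ and 18 a higher one, and 35 were under 1 CPM in every library. The share of genes below the filter whose groups did not overlap was not determined. Vcan, the gene for versican, was also below the filter, with a Cre− mean of 0.452 CPM and a Cre+ mean of 0.224 CPM.

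Mmp12, the macrophage elastase, was by far the most abundant of the 10 genes, also per length. It took 1.29, 1.39 and 1.36% of all gene counts in Cre− and 1.73, 1.63 and 1.61% in Cre+ libraries. That was 96.7% to 97.6% of the counts of the 10 genes together. Its level was 12947, 14140 and 13998 CPM in Cre− and 17510, 16439 and 16331 CPM in Cre+ libraries, so the groups did not overlap. The ratio was 1.22-fold and the log2 fold change 0.29 ± 0.04 (SE), a smaller relative but much larger absolute difference than that of Adamts1. Leaving out any 1 library gave 0.24 to 0.31. Mmp12 (ENSMUSG00000049723) lies on chromosome 9 at 7344381 to 7369499, and 157 of its 7237 exon bases overlap Mmp1b on the other strand, which had at most 4 reads in a library.

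Mmp14, a membrane-bound protease that activates the MMP2 proenzyme, was lower in Cre+ cultures. It measured 4.08, 4.58 and 5.08 CPM in Cre− and 2.54, 3.12 and 3.18 CPM in Cre+ libraries. The groups were separate, though the gap between the nearest libraries was under 1 CPM. The means were 4.58 ± 0.497 and 2.95 ± 0.356 CPM (SD, n = 3 each), a 1.55-fold lower level, with a log2 fold change of -0.64 ± 0.16 (SE). The gene was past the threshold with all 6 libraries but not after leaving out Cre− replicate 2 (-0.64), Cre− replicate 3 (-0.56), Cre+ replicate 1 (-0.54), Cre+ replicate 2 (-0.68) or Cre+ replicate 3 (-0.70). Mmp14 (ENSMUSG00000000957) lies on chromosome 14 at 54431612 to 54445364.

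The 2 gelatinases, which digest denatured collagen, were near the detection filter and did not separate the groups. Mmp2 measured 2.12, 1.88 and 1.31 CPM in Cre− and 2.13, 1.34 and 1.60 CPM in Cre+ libraries. Its log2 fold change of -0.06 ± 0.24 (SE) changed sign without Cre− replicate 1 (0.08) or Cre+ replicate 2 (0.07). Mmp9 measured 1.25, 1.42 and 1.24 CPM in Cre− and 1.97, 1.22 and 1.40 CPM in Cre+ libraries. Cre+ replicate 1 was the highest of the 6, and another Cre+ library was the lowest. The log2 fold change of Mmp9 was 0.23 ± 0.23 (SE), and 0.01 without Cre+ replicate 1. Each library held 109 to 216 Mmp9 reads, and a difference of this size was not detectable at this depth and spread. Mmp2 (ENSMUSG00000031740) lies on chromosome 8 at 92827291 to 92853420 and Mmp9 (ENSMUSG00000017737) on chromosome 2 at 164940780 to 164955850.

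Among the inhibitors, Timp2 carried nearly all of the measured level and was slightly lower in Cre+ cultures. It measured 81.7, 76.8 and 85.7 CPM in Cre− and 69.3, 71.1 and 68.0 CPM in Cre+ libraries, without overlap. The means were 81.4 ± 4.47 and 69.4 ± 1.56 CPM (SD, n = 3 each) and the log2 fold change was -0.23 ± 0.06 (SE). Leaving out Cre− replicate 1 (-0.24), Cre− replicate 3 (-0.19), Cre+ replicate 1 (-0.23), Cre+ replicate 2 (-0.25) or Cre+ replicate 3 (-0.21) placed it outside the threshold, as did testing without a filter (-0.15) or with filterByExpr (-0.19). Timp2 (ENSMUSG00000017466) lies on chromosome 11 at 118301069 to 118355740.

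Timp1, the inhibitor that activated glia are known to induce, was rare and lower in Cre+ cultures. It measured 1.48, 1.85 and 1.92 CPM in Cre− and 1.07, 0.741 and 0.982 CPM in Cre+ libraries. All Cre+ libraries were below all Cre− libraries, from 69 to 117 reads against 129 to 172. The level was 1.88-fold lower, with a log2 fold change of -0.91 ± 0.23 (SE). The gene left the threshold without Cre− replicate 2 (-0.87), Cre− replicate 3 (-0.84), Cre+ replicate 2 (-0.77) or Cre+ replicate 3 (-0.95), and also without a filter (-0.83) or with filterByExpr (-0.87). Timp1 (ENSMUSG00000001131) lies on the X chromosome at 20870166 to 20874735.

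Timp3, the inhibitor that stays bound to the matrix, was barely measured. It had 15, 21 and 10 reads in Cre− and 22, 6 and 8 reads in Cre+ libraries, and the groups overlapped. Timp3 (ENSMUSG00000020044, chromosome 10, 86300372 to 86349506) shares 1733 of its 8144 exon bases with Syn3 on the other strand. The library kit does not mark strand, so reads from the shared bases cannot be told apart by strand. Syn3 had 5 to 36 reads per library.

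Divided by exon length, levels can be set side by side between genes. In Cre− cultures the order of mean levels was Mmp12 (1892 CPM per kb), Timp2 (20.9), Fn1 (16.1), Postn (12.5), Adamts1 (3.94), Timp1 (1.97), Mmp14 (0.768), Mmp2 (0.525), Mmp9 (0.368) and Timp3 (0.0209). Only the neighbours Mmp2 and Mmp9 had overlapping ranges. In Cre+ cultures Adamts1 stood at 15.5 CPM per kb and Postn at 5.58 CPM per kb, so their order was exchanged. Timp2 made up 90.3% to 92.5% of the summed TIMP level per kb in Cre− and 93.5% to 95.6% in Cre+ libraries. The summed TIMP level was 21.8 to 24.2 CPM per kb in Cre− and 18.6 to 19.1 in Cre+ libraries. The summed level of Mmp2, Mmp9 and Mmp14 was 1.59 to 1.73 CPM per kb in Cre− and 1.27 to 1.61 in Cre+ libraries, which overlapped.

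**Figure D2:**
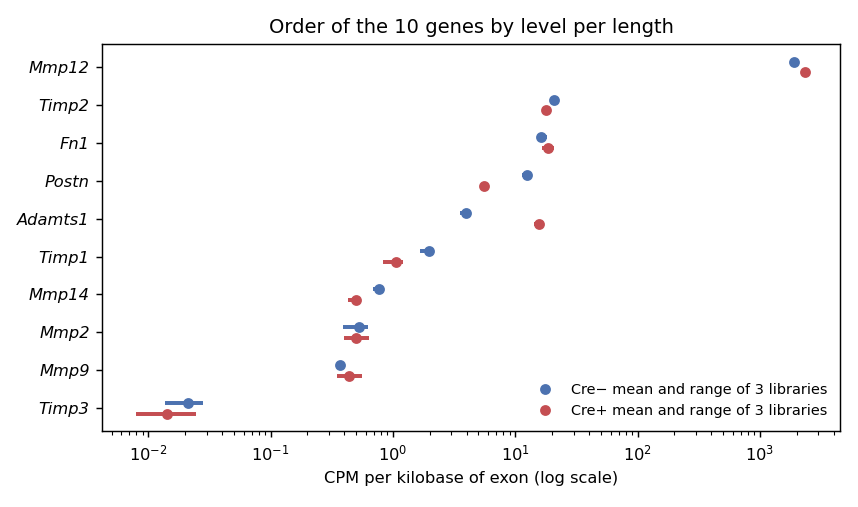
Mean level of each gene per kilobase of exon (log axis) in Cre− (blue) and Cre+ (red) cultures, with lines from the lowest to the highest of 3 libraries. Mmp12 stands at 1892 CPM per kb in Cre−, followed by Timp2 at 20.9, and Adamts1 moves above Postn in Cre+.

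Postn encodes periostin, a secreted protein that binds collagen and integrins and is best known from fibroblasts. It measured 116, 113 and 97.9 CPM in Cre− and 46.3, 53.0 and 46.5 CPM in Cre+ libraries. Every Cre+ library was well below every Cre− library. The means were 109 ± 9.87 and 48.6 ± 3.79 CPM (SD, n = 3 each), a 2.25-fold lower level and a log2 fold change of -1.17 ± 0.07 (SE), which stayed between -1.24 and -1.13 when any 1 library was left out. Postn (ENSMUSG00000027750) lies on chromosome 3 at 54361109 to 54391037.

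Most of the fibroblast and mural cell markers and of the other matrix genes read here also had lower means in Cre+ libraries. Of 12 fibroblast and mural cell markers, 10 were under 1 CPM in every library and 9 had a lower mean in Cre+. Pdgfrb, Tagln and Thy1 had higher means. Cspg4, the 1 marker that was tested, did not pass (log2 fold change -0.15 ± 0.06, edgeR adjusted p = 0.21). It held most of their sum, which was 49.8 to 53.1 CPM in Cre− and 43.0 to 47.3 CPM in Cre+ libraries. The other 11 summed to 4.14, 3.37 and 2.52 CPM in Cre− and 1.95, 2.13 and 1.43 CPM in Cre+ libraries. The defining fibroblast and mural cell genes were near 0 in both groups: Col3a1 averaged 0.320 CPM in Cre− and 0.0667 CPM in Cre+, and Pdgfrb 0.101 and 0.136 CPM. Of 46 other matrix genes described further on, the 31 that stayed under 1 CPM in every library, 5 of which are also among those markers, together held 10.3, 7.03 and 6.80 CPM in Cre− and 3.72, 3.48 and 3.69 CPM in Cre+ libraries. Means were also lower in Cre+ for all 6 neuronal markers and for 6 of 9 astrocyte markers. For oligodendrocyte and neutrophil markers 4 of 8 were lower in each list. The share of all rare genes with a lower mean in Cre+ was not determined. The part of fibroblasts and mural cells in the Postn difference was not tested.

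**Figure D3:**
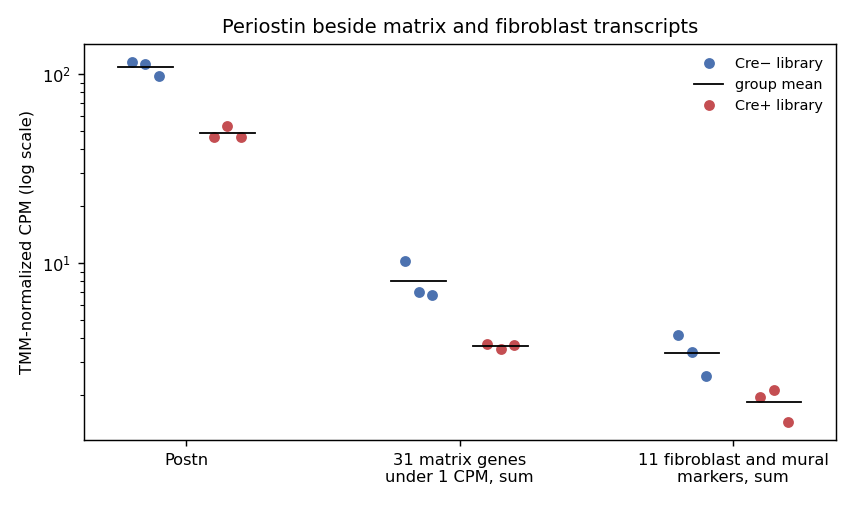
Level of Postn, of 31 rare matrix genes summed and of 11 fibroblast and mural cell markers summed (without Cspg4) in Cre− (blue) and Cre+ (red) libraries, in TMM-normalized CPM on a log axis, with bars for group means. All 3 quantities were lower in every Cre+ library than in any Cre− library.

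Fibronectin is a matrix glycoprotein that integrins bind and several MMPs cleave. Fn1 measured 210.0, 179 and 176 CPM in Cre− and 243, 194 and 211 CPM in Cre+ libraries. The groups overlapped, with Cre− replicate 1 above Cre+ replicate 2. The log2 fold change was 0.20 ± 0.08 (SE) and ranged from 0.10 to 0.27 when 1 library was left out. It passed the threshold only when genes were tested without a filter, where it was 0.28. Fn1 (ENSMUSG00000026193) lies on chromosome 1 at 71585520 to 71653200, and 424 of its exon bases overlap an antisense gene with at most 14 reads.

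Other genes of the pathway were read from 4 lists. Of 48 other metalloproteases, 11 were tested and 1 passed, Mmp13. Mmp13, a collagenase, measured 91.3, 111 and 114 CPM in Cre− and 165, 131 and 127 CPM in Cre+ libraries, without overlap. Its log2 fold change was 0.42 ± 0.09 (edgeR adjusted p = 0.015). It no longer passed without Cre− replicate 1 (0.32, edgeR adjusted p = 0.054), without Cre+ replicate 1 (0.29, edgeR adjusted p = 0.054) and with DESeq2 (0.42, adjusted p = 0.077). The sheddases Adam8 and Adam17 were level between the groups, with log2 fold changes of 0.00 ± 0.05 each (edgeR adjusted p = 1.0 and 0.98). Mmp8 (0.06 ± 0.08, edgeR adjusted p = 0.77) and Mmp19 (-0.13 ± 0.07, edgeR adjusted p = 0.32) did not pass. The median of the 11 was 0.00, as for all genes tested.

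Mmp12, Mmp13 and Mmp8 lie in a cluster of 10 MMP genes within 427 kb of chromosome 9 (7272514 to 7699585). The other 7 genes of the cluster were below the filter. Among these, Mmp10 had 35, 9 and 52 reads in Cre− and 98, 76 and 78 in Cre+ libraries, and Mmp27 had 37, 44 and 42 against 73, 66 and 50. Mmp3 had 20, 13 and 40 reads in Cre− and 13, 9 and 10 in Cre+ libraries. Mmp10 and Mmp27 were thus higher in Cre+ libraries without overlap, as Mmp12 and Mmp13 were, whereas Mmp3 lay the other way. The nearest Mmp27 libraries of the groups held 44 and 50 reads. Mmp1a and Mmp20 had lower means in Cre+ and Mmp1b and Mmp7 higher ones, each with overlap between the groups. Of all genes tested, 24.0% had groups that did not overlap, a share that leaves out genes below the filter. The cluster genes below the filter were named after their values were seen.

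Of 27 other inhibitors and genes of the plasminogen system, 15 were tested, 1 was higher and 3 were lower in Cre+. Anxa2, which encodes a surface receptor for plasminogen and its activator, rose from 989 ± 11.4 to 1157 ± 59.9 CPM (log2 fold change 0.23 ± 0.04, edgeR adjusted p = 0.0053). Slpi, which encodes an inhibitor of neutrophil elastase, fell from 18.3 ± 2.93 to 11.6 ± 0.740 CPM (-0.66 ± 0.11, edgeR adjusted p = 0.0028). Spint1, which encodes an inhibitor of membrane serine proteases, fell from 15.8 ± 0.576 to 11.6 ± 0.536 CPM (-0.45 ± 0.09, edgeR adjusted p = 0.0092). These 3 calls were kept in every alternative tried. Bsg, which encodes the MMP inducer basigin, fell from 375 ± 11.5 to 335 ± 7.69 CPM (-0.17 ± 0.04, edgeR adjusted p = 0.035). It failed the test without any 1 library other than Cre− replicate 1 (-0.18 to -0.14, edgeR adjusted p = 0.058 to 0.15), without a filter and with filterByExpr. The protease inhibitor cystatin C (Cst3, -0.04 ± 0.04, edgeR adjusted p = 0.61) and the proenzyme convertase Furin (-0.13 ± 0.08, edgeR adjusted p = 0.45) did not pass, and Lcn2, whose product binds MMP9, was below the filter. The median of the 15 was -0.03.

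Of 46 other matrix proteins, 11 were tested and 0 passed with edgeR, with 4 at an unadjusted p under 0.05. limma's voomWithQualityWeights passed 1 and DESeq2 passed 2, all lower in Cre+. Osteopontin (Spp1) took 6.61% to 6.95% of all counts and did not differ beyond the spread (-0.03 ± 0.03, edgeR adjusted p = 0.60). Ecm1, a secreted matrix glycoprotein, had a log2 fold change of -0.02 ± 0.06 (edgeR adjusted p = 0.90). Tgfbi, the closest relative of periostin and like it an integrin-binding fasciclin protein, measured 60.3, 68.1 and 64.3 CPM in Cre− and 42.5, 57.5 and 55.3 CPM in Cre+ libraries. Its groups did not overlap, and its log2 fold change of -0.31 ± 0.09 missed the threshold (edgeR adjusted p = 0.062). It passed with DESeq2 (adjusted p = 0.014), with voomWithQualityWeights (adjusted p = 0.048) and without a filter (edgeR adjusted p = 0.048). It also passed without Cre+ replicate 2 (-0.39, edgeR adjusted p = 0.041), and it shrank to -0.19 without Cre+ replicate 1 (edgeR adjusted p = 0.17). Of the 46 genes, 38 had a lower mean in Cre+, and 31 were under 1 CPM throughout.

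Of 14 matrix receptors, 12 were tested, 1 was higher and 1 was lower. Syndecan-1 (Sdc1), a heparan sulfate proteoglycan, rose from 96.7 ± 6.77 to 120.3 ± 17.0 CPM (0.32 ± 0.08, edgeR adjusted p = 0.034). It did not pass without Cre− replicate 1 (0.27, edgeR adjusted p = 0.12), Cre− replicate 3 (0.30, edgeR adjusted p = 0.12) or Cre+ replicate 1 (0.19, edgeR adjusted p = 0.13). Itgb5, the β5 integrin subunit, which pairs with αv to bind periostin, fell from 99.8 ± 7.39 to 85.9 ± 1.84 CPM (-0.22 ± 0.06, edgeR adjusted p = 0.043). It failed the test without any 1 library other than Cre− replicate 2 (-0.22 to -0.19, edgeR adjusted p = 0.088 to 0.15), with voomWithQualityWeights (adjusted p = 0.054) and under both other filters. The fibronectin receptor subunit Itga5 (0.03 ± 0.05, edgeR adjusted p = 0.83) and the hyaluronan receptor Cd44 (0.03 ± 0.04, edgeR adjusted p = 0.83) did not pass. The median of the 12 was 0.03.

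**Figure D4:**
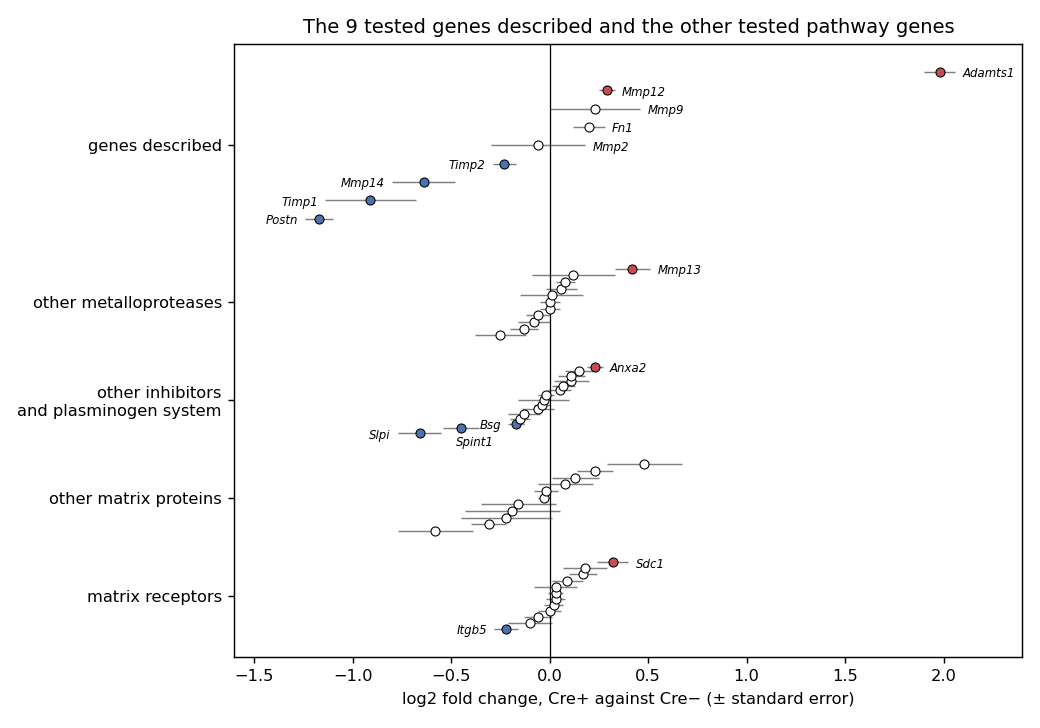
Log2 fold change of Cre+ against Cre− with its standard error for the 9 tested genes described here and for the tested genes of 4 other lists, filled red or blue where edgeR's adjusted p was at most 0.05 (red higher, blue lower) and white otherwise. Adamts1 at 1.98 and Postn at -1.17, which were chosen for their differences, lie outside the range of the tested genes of the other lists. The 11 other matrix proteins are all white.

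The genes most like Adamts1 over the 6 libraries were sought among the 8445 genes that averaged 5 CPM or more, by Pearson correlation of log2 CPM. They were Sgce (0.996), Gm6969 (0.994), Srsf7 (0.994), Hnrnpa1 (0.993) and Nfe2l2 (0.993). Sgce had a mean of 6.56 CPM in Cre− and 35.4 CPM in Cre+, the difference nearest in kind to that of Adamts1. Gm6969 is a processed pseudogene whose reads may be shared with its parent gene. Those most like Postn were Cbr1 (0.993), Angptl4 (0.992), Gas6 (0.991), Fcgr1 (0.989) and Pex5 (0.988). Cbr1 averaged 76.5 CPM in Cre− and 44.5 CPM in Cre+. These correlations describe 6 points that fall into 2 groups and share their libraries, so a high value mostly restates that a gene separates the groups.

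Markers of other cells that such cultures can hold were read in the same way. Sums were 44.5 to 48.4 CPM in Cre− and 42.8 to 48.7 CPM in Cre+ for 9 astrocyte genes, 6 of them with a lower mean in Cre+. Aldoc and Aldh1l1 set this sum, and the other 7, Gfap and Aqp4 among them, were under 1 CPM in every library. For 8 oligodendrocyte genes the sums were 60.3 to 72.2 and 62.3 to 68.2 CPM, with 4 lower. Mbp, Cnp and Mag set them, and the other 5 were under 1 CPM in every library. For 6 neuronal genes the sums were 2.88 to 3.77 and 2.05 to 2.14 CPM, with all 6 lower. Endothelial genes (6) summed to 20.9 to 22.9 CPM in Cre− and 24.3 to 27.9 CPM in Cre+ libraries, set by Flt1, while the other 5 had lower means. Border macrophage genes (4) summed to 61.0 to 63.2 and 73.9 to 90.5 CPM. Mrc1 set this sum and rose (0.47, edgeR adjusted p = 6.69e-04), Pf4 fell from 5.40 to 3.12 CPM (-0.79, edgeR adjusted p = 0.0096), and Lyve1 and Cd163 were under 1 CPM with lower means. Dendritic cell genes (5) summed to 320.1 to 333 and 376 to 408 CPM, set by Itgax (0.27, edgeR adjusted p = 0.0016), with 3 of the 5 lower in mean, Flt3 among them (0.446 and 0.114 CPM). Neutrophil genes (8, mostly S100a8, with 4 lower and 4 higher), listed because these cells carry MMP8 and MMP9, summed to 9.33 to 11.4 CPM in Cre− and 7.37 to 8.55 CPM in Cre+, with Ly6g and Mpo near 0. The part of these cells in the levels of the proteases was not tested.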

How the data were processed

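RNA from 6 microglia cultures was sequenced as 1 library each. The authors made the counts with STAR 2.7.9a and featureCounts 2.0.3 on GRCm38, per the labels' processing notes, and deposited whole reads per Ensembl gene. The authors also deposited CPM (counts over the library total) and FPKM (CPM over gene length), which were read only to check their unit. The kit amplified cDNA from little RNA and does not mark strand.

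Symbols, biotypes and exons came from GENCODE M21, where 55227 of 55487 identifiers matched. Ribosomal RNA genes (356) were removed. Genes that exceeded 1 CPM in 4 or more libraries were compared between 3 Cre+ and 3 Cre− libraries with TMM factors (0.986 to 1.01) and edgeR 4.0.16 in R 4.3.3 without covariates, with adjustment over 11429 genes. CPM in the text are TMM-normalized, and the SE is the log2 fold change over the root of F. The coefficient of variation between cultures was 10%. The chi-square per degree of freedom between libraries of a group was 18.8 to 25.8, so none was the same library sequenced again. This value does not tell separate cultures from repeat preparations of 1 culture. The pipeline was tested on simulated data.

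The genes described and the lists were chosen with earlier results of these data known. Named genes were the 10, the clock genes, up to 5 genes past the threshold and the 3 most abundant per kb of each list, all tested MMPs, Vcan, Cd44, Lcn2, Furin, the 5 genes most like Adamts1 or Postn, and markers. Adamts5, the rare MMP genes of the chromosome 9 cluster and the rare genes of the closing section were added after values were seen. Alternatives were DESeq2 size factors, library totals, no filter, filterByExpr, limma 3.58.1 voomWithQualityWeights, DESeq2 1.42.0, the replicate number as a block, and leaving out each library, which kept the tested genes fixed. Promoter sequence came from RefSeq (GRCm38.p6). Plots used python 3.11.15 and matplotlib 3.10.9. The value of 1 microglia marker and the sum over that list are not reported here.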

Additional observations from a re-analysis of the deposited data

How the results depend on the processing

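Higher Adamts1 and Mmp12 and lower Postn were past the threshold in all 6 fits without a library and all 7 other settings. Adamts1 and Postn were chosen for this difference and the fits share the same libraries, so these calls are not separate support. Genes past it numbered 579, and 1528 without a filter (43842 tested), 886 with DESeq2 and 317 to 448 when a library was left out. Of the 10 genes, 6 passed, and 3 to 5 when a library was left out. Without a filter 5 passed, with Fn1 gained and Timp1 and Timp2 lost. With filterByExpr 4 passed, with Timp1 and Timp2 lost. The counts for other metalloproteases (1) became 5 without a filter, 3 with filterByExpr, 0 with DESeq2 and 0 to 1 with a library left out. Those for other matrix proteins (0) became 6 without a filter, 1 with filterByExpr, 1 with voomWithQualityWeights, 2 with DESeq2 and 0 to 1 with a library left out. Those for matrix receptors (2) became 1 without a filter, 1 with filterByExpr, 1 with voomWithQualityWeights and 0 to 2 with a library left out. Without a filter more genes were tested and the median log2 fold change of the genes tested above became 0.08. The cause of the other shifts was not tested.

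The replicate numbers are shared by both groups, but nothing in the labels ties equal numbers to a litter or day. Deviations of same-numbered libraries from their group means correlated at 0.0144, -0.0205 and -0.0445. No pairing was seen in these values. They cannot exclude a shared litter or day, because they are few and each group was centred on its own mean. With the replicate number as a block, 430 genes passed, 4 of the 10 (Timp1 and Timp2 no longer), 1 other metalloprotease, 3 inhibitors and plasminogen genes, 1 other matrix protein and 0 receptors.

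Small log2 fold changes turned sign without a filter for Cst3 (0.04), Ecm1 (0.06), Spp1 (0.04) and Mmp2 (0.02), and with filterByExpr for Ecm1 (0.02) and Spp1 (0.01). With a library left out, the range was -0.01 to 0.05 for Cd44 and for Itga5, -0.08 to 0.03 for Ecm1, -0.04 to 0.25 for Arntl, -0.27 to 0.08 for Mmp2 and -0.01 to 0.14 for Mmp8. Adam8 and Adam17, both at 0.00, moved between -0.05 and 0.04 with a library left out and to 0.08 without a filter. None of these passed the test in any alternative. Of the other values of single genes, 325 stayed on the same side of the threshold without turning from one clear sign to the other, 44 lost the threshold and 7 gained it.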

Other observations

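Several rare genes of the matrix pathway, below the filter used in the report, passed edgeR's test when every gene with a count was tested, and are given here as values (the fit without a filter puts the median of the genes tested above at 0.08). They were named after their values were seen. Lower in Cre+ were the aggrecanase Adamts5 (-2.51 ± 0.56, edgeR adjusted p = 7.79e-04), with 38 to 61 reads in Cre− and 5 to 16 in Cre+, and the membrane-type protease Mmp16 (-2.50 ± 0.62, edgeR adjusted p = 0.0042), with 27 to 60 and 5 to 9 reads. Adam28, a membrane protease of lymphocytes, was lower as well (-1.55 ± 0.46, edgeR adjusted p = 0.029). So were Col1a1 (-1.85 ± 0.56, edgeR adjusted p = 0.034), Lama2, a laminin subunit (-1.84 ± 0.58, edgeR adjusted p = 0.047), and Fbln2, a fibulin (-2.17 ± 0.69, edgeR adjusted p = 0.049). Serpinf1, which encodes the pigment epithelium-derived factor, was lower (-2.82 ± 0.73, edgeR adjusted p = 0.0081), but its Cre− libraries spread from 2 to 82 reads. Mmp10, a stromelysin gene in the chromosome 9 cluster that also holds Mmp12, was the rare gene of these lists that passed in the other direction (1.29 ± 0.41, edgeR adjusted p = 0.048), with 9 to 52 reads in Cre− and 76 to 98 in Cre+. The calls given here belong to the fit without a filter, where 1528 of the 43842 genes tested passed. Its adjusted p-values moved more than its fold changes did. For Mmp13 edgeR's adjusted p was 0.015 with the filter and 1.35e-10 without it (log2 fold change 0.42 and 0.50). For Bsg edgeR's adjusted p was 0.035 and 0.5 (-0.17 and -0.09). The p-values of the rare genes are therefore not to be set beside those of the filtered fit. With filterByExpr, 37 other metalloproteases were tested, and 1 higher and 2 lower passed. The higher one was Mmp13 (edgeR adjusted p = 0.016), so Mmp10 did not pass there. Anxa2, Slpi and Spint1 were the 3 inhibitor and plasminogen genes that passed there, so Serpinf1 did not. Of 36 other matrix proteins tested there, 1 passed, lower in Cre+.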
